A study of Mus musculus with 20 samples.

Results

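Of 33833 follicular T cells with a paired T cell receptor (TCR) sequence, 3760 (11.1%) carried 2 different productive TCR α chains. These cells were found as those whose list of J genes held 2 names starting with TRAJ, the α chain joining genes, and they were compared with the other 30073 cells, whose list held 1 TRAJ and 1 TRBJ name. The cells came from spleens of 10 C57BL/6 bone marrow chimeras of both sexes, which are irradiated mice rebuilt with donor marrow. In the 5 mixed 564Igi chimeras, part of the marrow came from 564Igi mice, whose B cells carry a knocked-in autoreactive receptor against ribonucleoprotein complexes. The 5 WT chimeras received WT marrow and were immunized with NP-OVA in alum at week 6. All were analyzed at week 10, and CD4+CXCR5+PD1+ cells were sorted. Both conditions thus differ in marrow and in immunization. A 10x gene expression and a TCR library were made from each mouse.

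A developing T cell rearranges the β chain gene first and then the α chain genes. Rearrangement of the α locus proceeds on both chromosomes at about the same time and can be repeated on each of them, from the TRAJ genes nearest to the V genes (high numbers) towards those nearest to the constant gene (low numbers). Silencing of the second α allele is incomplete, so a share of normal T cells holds 2 in-frame α chains, which is called allelic inclusion. A droplet that caught 2 cells (a doublet) also lists 2 α chains, usually beside 2 β chains.

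The deposited lists bound what could be counted. Each field of the TCR table held at most 2 values in sorted order in 100% of cells, so that a cell with 2 TRAJ names listed no TRBJ name and at most 2 of its CDR3 sequences. The CDR3 is the stretch where V and J genes join, and it identifies a rearrangement. Chains left out of the lists were read back from the contig sequences of the cells and of the other cells of their clonotype, the set of cells to which the library gave 1 clonotype number. No cell showed more than 2 α or 2 β sequences. All of 2 α and 1 β sequences were seen in 2486 of the 3760 cells, and a second β sequence was seen in 493 of them (13.1%). Of the 30073 cells with 1 TRAJ and 1 TRBJ name, 1567 (5.21%) also showed a second β sequence, and 28296 showed exactly 1 α and 1 β. A second β can stay hidden more easily where 2 α chains also fill the lists. Both rates were thus not found with equal visibility, and cells with no second β seen can include cells that had one. In cells with 1 TRAJ and 1 TRBJ name, 2 α chains that share a TRAJ gene are listed under 1 TRAJ name. Their CDR3 and contig sequences showed up to 2 α sequences, and such cells stayed among the other cells. The 10 libraries shared some cell barcodes, which 156 cells with 2 α chains (4.15%) and 1225 of the other cells (4.07%) carried, and 0 of these had the same CDR3 pair in both libraries.

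The clonotypes that held the most cells with 2 α chains show what such a receptor looks like. The sequences below are CDR3 nucleotide sequences of the 5 largest, 5′ to 3′, with the bases between the first 3 and the last 5 codons in capitals, where the V and J ends and the bases added at the join lie. They are shown because the same 2 α rearrangements were found again in many cells of 1 mouse. The clonotype of mouse 12 (WT) held 128 cells and the others 77 cells in mouse 17 (564Igi), 70 cells in mouse 11 (WT), 62 cells in mouse 13 (564Igi) and 38 cells in mouse 21 (564Igi).
mouse 12 α 1 (TRAV12-3, TRAJ30): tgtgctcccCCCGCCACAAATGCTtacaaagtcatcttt
mouse 12 α 2 (TRAV6D-5, TRAJ31): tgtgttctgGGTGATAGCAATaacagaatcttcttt
mouse 12 β 1: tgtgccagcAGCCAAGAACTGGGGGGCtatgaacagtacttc
mouse 12 β 2: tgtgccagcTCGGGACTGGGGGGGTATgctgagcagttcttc
mouse 17 α 1 (TRAV19, TRAJ57): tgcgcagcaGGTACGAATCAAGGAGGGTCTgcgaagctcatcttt
mouse 17 α 2 (TRAV6-6, TRAJ45): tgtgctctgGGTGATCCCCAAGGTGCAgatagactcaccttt
mouse 17 β: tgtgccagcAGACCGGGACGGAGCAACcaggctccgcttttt
mouse 11 α 1 (TRAJ27): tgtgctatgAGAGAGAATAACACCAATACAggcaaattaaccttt
mouse 11 α 2 (TRAJ12): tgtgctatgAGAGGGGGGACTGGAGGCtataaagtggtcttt
mouse 11 β: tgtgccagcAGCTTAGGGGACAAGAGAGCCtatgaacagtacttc
mouse 13 α 1 (TRAV8N-2, TRAJ43): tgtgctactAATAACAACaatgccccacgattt
mouse 13 α 2 (TRAV6-7-DV9, TRAJ48): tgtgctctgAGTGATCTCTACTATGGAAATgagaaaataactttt
mouse 13 β: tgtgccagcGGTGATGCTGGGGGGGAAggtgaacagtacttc
mouse 21 α 1 (TRAV6N-6, TRAJ35): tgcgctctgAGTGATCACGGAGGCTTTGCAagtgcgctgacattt
mouse 21 α 2 (TRAV5-4, TRAJ32): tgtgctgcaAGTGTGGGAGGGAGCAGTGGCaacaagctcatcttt
mouse 21 β: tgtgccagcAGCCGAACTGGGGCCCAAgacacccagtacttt

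The TRAJ genes lie on the plus strand of chromosome 14 (GRCm38, GENCODE annotation), from TRAJ58 at chr14:54157280-54157342 to TRAJ2 at chr14:54217836-54217901. The α chains of the mouse 12 clonotype used TRAJ31 (chr14:54187895-54187951) and TRAJ30 (chr14:54189866-54189924), which are neighbors. Those of mouse 13 used TRAJ48 (chr14:54169808-54169868) and TRAJ43 (chr14:54174742-54174798), 5 numbers apart, and those of mouse 21 used TRAJ35 and TRAJ32, 3 numbers apart. The α chains of mouse 17 used TRAJ57 and TRAJ45, which are 12 numbers apart. Those of mouse 11 used TRAJ27 and TRAJ12, 15 numbers apart, the widest distance of these 5 clonotypes.

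Among cells of the mouse 12 clonotype with RNA data, 76 of 95 were activated TFH cells, the Tnfsf8-expressing cluster named by the authors. In mouse 17, 55 of 62 cells were activated TFH, and in mouse 13, 45 of 46 cells were TFR, the Foxp3-expressing regulatory cluster. The mouse 21 clonotype was split, with 15 of 29 cells in the effector TFH cluster (Ccl5, Gzmk and Nkg7) and 11 in the activated cluster. The mouse 11 clonotype had 44 of 57 cells in the TFR cluster. The mouse 12 clonotype stood apart in that 2 β sequences were seen with its 2 α sequences, and it made up 29.3% of the cells with 2 α chains of that mouse.

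The share of cells with 2 α chains differed widely between mice, and no difference between conditions was detected. It was 9.97%, 13.9%, 14.1%, 10.2% and 4.51% in the WT mice 14, 11, 12, 23 and 36, and 9.88%, 9.14%, 15%, 14.6% and 4.95% in the 564Igi mice 17, 24, 13, 21 and 34. The groups overlapped over nearly their whole range, and the lowest share of each group came from the mouse with the highest number in its label, 36 and 34. WT chimeras averaged 10.5% ± 3.89 (SD, n = 5) and 564Igi chimeras averaged 10.7% ± 4.17 (SD, n = 5), a difference of 0.172 percentage points (exact permutation test over all assignments of mice, two-sided, p = 0.873, smallest possible p 0.00794). Without mice 34 and 36 the means were 12% and 12.1%. Each share rested on 2047 to 4695 cells, and the 95% Wilson intervals, which cover counting error only, were much narrower than the spread between mice.

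**Figure D1:**
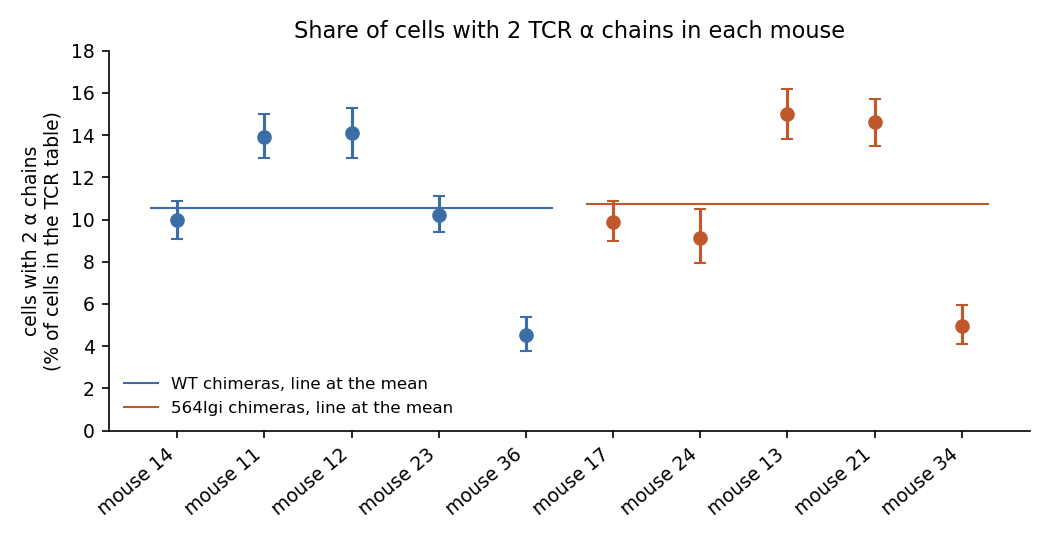
Percent of cells with 2 TCR α chains among the cells with a TCR in each mouse (y axis), with 95% Wilson intervals as bars and the mean of each condition as a line. Mice 36 and 34 sit at 4.51% and 4.95%, below the other 8 mice, which lie between 9.14% and 15%.

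The rate of doublets depends on how many cells were loaded, which was not given per mouse. Cells recovered depend on loading, but also on the chains found and on the authors' filters. Mouse 36 had 2597 cells in the TCR table and 4030 in the RNA table, and mouse 14 had 3943 and 1890. Neither count measures loading alone, so the relations below cannot decide on doublets. Across the 10 mice the share went with the number of cells recovered in the TCR library at Pearson's r = 0.555 (permutation p = 0.0981, adjusted over 4 relations 0.196) and Spearman's rho = 0.527 (permutation p = 0.124, adjusted 0.312). Without the 2 mice farthest from the median cell number (24 and 34), r was 0.340 (permutation p = 0.392), and without mice 34 and 36 it was 0.138 (n = 8, permutation p = 0.754). With the number of cells in the filtered RNA table in place of the TCR table, r was -0.129 (permutation p = 0.723). None of the 4 relations passed the test.

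Both α chains of a cell came from nearby TRAJ genes more often than α chains drawn from different clonotypes. For these distances, cells of a mouse that listed the same CDR3 amino acid sequences and J genes were counted once, as 1 clonotype. This unit differs from the clonotype number of the library. The TRAJ numbers of both chains lay 12.2 ± 1.17 apart (SD, n = 10 mice), against 16.4 ± 0.254 for pairs of α chains from different clonotypes of the same mouse. The values within cells were 14.2, 12.1, 12.7, 13.1 and 10.8 in the WT mice 14, 11, 12, 23 and 36, and 11.2, 12.3, 11.3, 13.5 and 10.9 in the 564Igi mice 17, 24, 13, 21 and 34. All 10 values lay below the lowest value between clonotypes, 16.1. The mean within-mouse difference was -4.20 (SD 1.07, lower in 10 of 10 mice, exact sign-flip permutation test, two-sided, p = 0.00195, the smallest 10 mice allow). Conditions did not differ detectably in it (-3.95 in WT and -4.46 in 564Igi chimeras, exact permutation p = 0.484).

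The excess lay at short distances. Of the clonotypes with 2 TRAJ names, 31% ± 3.85 (SD, n = 10 mice) used genes 1 to 5 numbers apart, against 17.2% of pairs between clonotypes. At 6 to 10 numbers apart the values were 24% and 18%, and at 11 to 20 they were 26.7% and 28.6%. Genes 31 to 60 numbers apart made up 6.55% of clonotypes and 13.8% of pairs. A distance of 0 cannot occur under the rule that chose these cells, but 3.14% of pairs had it, and against pairs with different names the difference was -4.73. Measured along the chromosome, the chains of a cell lay 12.9 ± 1.26 kb apart and pairs between clonotypes 17.3 ± 0.280 kb.

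**Figure D2:**
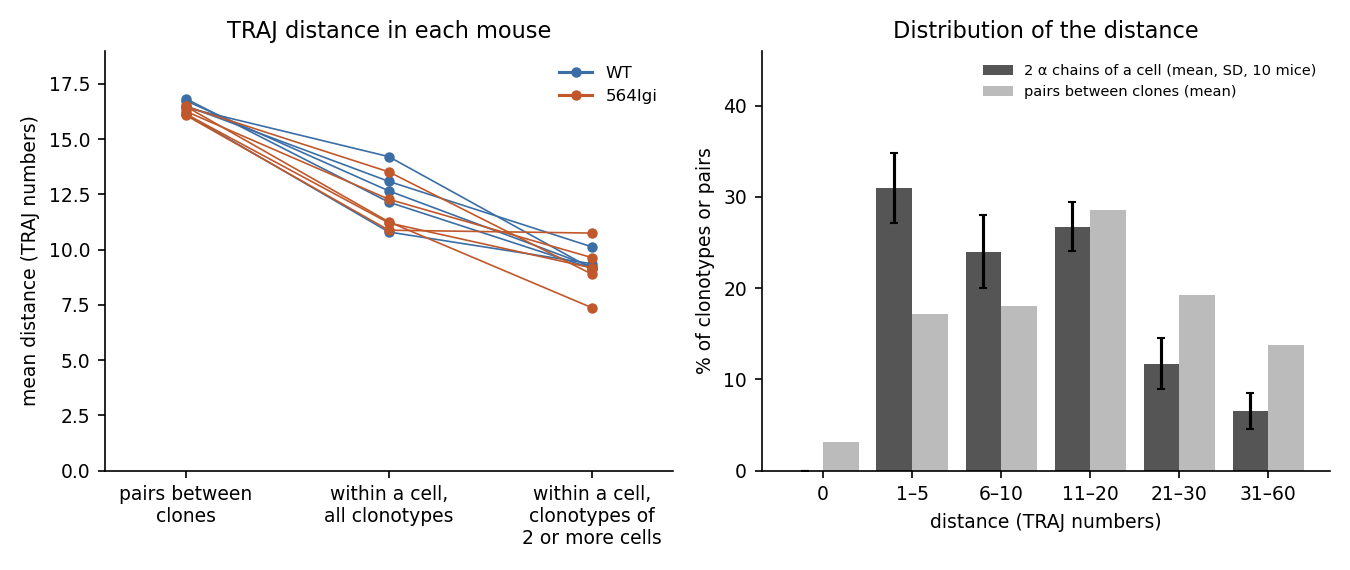
Left, mean distance in TRAJ numbers (y axis) in each mouse for pairs of α chains between clonotypes, for both α chains of a cell over all clonotypes, and for clonotypes found in 2 or more cells, with 1 line per mouse. Right, percent of clonotypes (dark bars, mean over 10 mice with SD) and of pairs between clonotypes (light bars) in each range of distance, where the dark bar is higher from 1 to 10 and lower above 10.

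The distance was shorter still in clonotypes whose rearrangements were seen more than once. It was 9.29 ± 0.872 for clonotypes of 2 or more cells and 12.6 ± 1.18 for those of 1 cell (difference -3.32, SD 1.55, lower in 10 of 10 mice, exact sign-flip p = 0.00195). Both lay below pairs between clonotypes in 10 of 10 mice. Clonotypes in which a second β sequence was seen had a distance of 13.4 ± 2.25 (lowest mouse 8.71, highest 15.8), which was 1.21 above that of all clonotypes with 2 α chains (higher in 8 of 10 mice, exact sign-flip p = 0.0508). The gap between recurring and single clonotypes was therefore larger than the spread between mice, while that of clonotypes with a second β was not.

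No single TRAJ gene passed the test for a difference in use. The mean TRAJ number was 30.7 ± 1.58 in clonotypes with 2 α chains and 31.4 ± 1.11 in the others (lower in 7 of 10 mice, exact sign-flip p = 0.0332). Of 43 TRAJ genes, 0 differed after Benjamini-Hochberg adjustment. The lowest unadjusted p was that of TRAJ45, which made up 1.47% of α chains in cells with 2 of them and 1.02% in the others (exact sign-flip p = 0.00586, adjusted 0.252). TRAJ18, the joining gene of invariant natural killer T cells, made up 2.23% and 1.96% (exact sign-flip p = 0.273).

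Most clonotypes with 2 α chains were found in 1 cell. Of 2313 clonotypes with 2 α chains, 2016 held 1 cell, which made up 53.6% of these cells, 224 held 2 to 5 cells, 63 held 6 to 20 cells and 10 held 21 to 128 cells (13.6% of cells). With a clone defined as cells of 1 mouse that list the same CDR3 amino acid sequences, 52.0% ± 11.4 of cells with 2 α chains and 66.1% ± 7.81 of the other cells lay in clones of 2 or more (SD, n = 10 mice). The difference was -14.1 percentage points (SD 7.65, lower in 9 of 10 mice, exact sign-flip p = 0.00391), and mouse 12, with the clonotype of 128 cells, was the exception at 76.9% and 75.4%. With the clonotype number of the library, which covers every chain of a cell, the values were 44.2% and 64.5% (difference -20.4, lower in 10 of 10 mice, exact sign-flip p = 0.00195).

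No such difference was detected when the β CDR3 defined a clone, over cells with a β seen. Cells that shared the β CDR3 were counted as a clone whatever their α chains, and cells with no β seen were left out. By this count 76.4% ± 7.79 of cells with 2 α chains and 75.9% ± 5.74 of the other cells lay in clones of 2 or more (difference 0.470, SD 4.07, exact sign-flip p = 0.721). Clonotypes of 1 cell held 2016 of all 3760 cells with 2 α chains. They held 1020 of the 2486 in which exactly 2 α and 1 β were seen. The cells counted thus lean toward recurring clonotypes, and 76.4% is not a share of all cells with 2 α chains. A cell can list a further α chain, from its own genes or from another cell in its droplet. By the clonotype number, which covers every chain, it can then leave its clone, and by the β CDR3 it can stay in it. By listed CDR3s it can do either, since the lists hold at most 2 values. The part of this in the differences was not tested. Of the 2208 CDR3 pairs listed by cells with 2 α chains, 0 were found in more than 1 mouse. The paper reports little sharing of clonotypes between chimeras in general. The other cells were not counted in this way, so the 0 cannot be read as particular to cells with 2 α chains.

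Relatives with 1 α chain show which of both α chains travelled with the β chain in other cells. The 1272 clonotypes with exactly 2 α and 1 β sequences, all of them seen, were compared with cells of the same mouse in which 1 α was seen. In 113 clonotypes (8.88%) each of both α chains was found with that β in such cells. In 503 (39.5%) 1 of them was, and in 266 of these (20.9% of all) the other α occurred in cells with another β. In the remaining 656 (51.6%) neither α was found with the β.

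The picture differed between recurring and single clonotypes. Among clonotypes of 2 or more cells, each of both α chains occurred with the β in 83 (32.9%), and 7.54% showed 1 α with the β while the other α occurred with another β. Of 1020 clonotypes of 1 cell, the values were 2.94% and 24.2%. Averaged over mice, both α chains occurred with the β in 39.5% ± 17.4 of recurring and 3.91% ± 3.89 of single clonotypes, higher in 10 of 10 mice (no test was made, since larger clonotypes have more relatives to find). Relatives of the mouse 17 clonotype numbered 27 cells with TRAJ57 alone and 13 with TRAJ45 alone. The mouse 21 clonotype had 47 cells with TRAJ35 alone and 15 with TRAJ32 alone, and that of mouse 13 had 3 with TRAJ43 alone and 6 with TRAJ48 alone. For the mouse 12 clonotype, both β sequences were seen beside TRAJ30 alone in 15 cells and beside TRAJ31 alone in 28 cells.

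Relatives with 1 α chain lay in the cluster of the cells with 2 α chains more often than other cells of the mouse did. In 353 clonotypes with RNA data on both sides, cells with 2 α chains were paired with relatives that shared the β and an α. The share of pairs in the same cluster was averaged over clonotypes of a mouse, each with equal weight. It was 60.9% ± 8.99, against 36.8% ± 3.56 for pairs with any cell with 1 α and 1 β of the same mouse (SD, n = 10 mice). The difference was 24.1 percentage points (higher in 10 of 10 mice, exact sign-flip p = 0.00195). For clonotypes of 1 cell the share was 57.2% ± 11.8, and for recurring clonotypes 66.2% ± 9.83. In mouse 21, 10 of 10 relatives with TRAJ32 alone and 23 of 36 with TRAJ35 alone were effector TFH cells, and in mouse 17, 19 of 19 relatives with TRAJ57 alone were activated TFH cells.

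**Figure D3:**
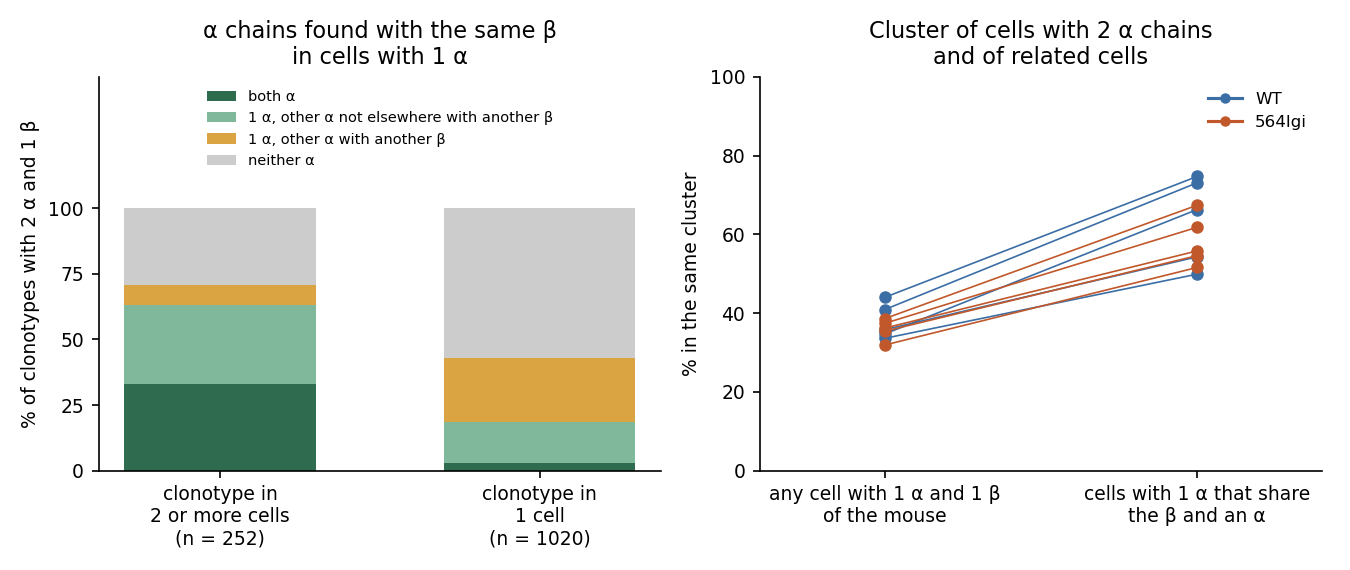
Left, percent of clonotypes with 2 α and 1 β sequences (y axis) by whether both, 1 or neither α chain was found with the same β in cells with 1 α, where both were found in 32.9% of recurring and 2.94% of single clonotypes. Right, percent of pairs with a cell with 2 α chains that were in the same cluster, averaged over clonotypes. It is given for any cell with 1 α and 1 β of the mouse and for related cells, with 1 line per mouse, all of which rise.

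RNA profiles were matched by library and barcode. The filtered RNA table held 28192 cells, and 2557 cells with 2 α chains and 18848 of the other cells were found in it. The share found was 69.1% ± 9.06 for cells with 2 α chains and 63.1% ± 14 for the others (difference 5.98 percentage points, SD 6.57, higher in 10 of 10 mice, exact sign-flip p = 0.00195). Mice 14 and 24 differed most, at 48.9% and 33.2% in mouse 14 and 64.7% and 44.6% in mouse 24, and without them the difference was 3.02 (exact sign-flip p = 0.00781). The table had been limited by the authors to cells within a range of genes per cell, and no cell in it held more than 3498 genes, so that cells with more RNA than this were not compared.

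Cells with 2 α chains held more RNA. The mean log2 number of RNA UMIs (unique molecular identifiers, which count captured transcripts) was 12 ± 0.199 in these cells and 11.9 ± 0.181 in the others. The within-mouse difference was 0.138 (SD 0.0807, a ratio of 1.10, higher in 9 of 10 mice, exact sign-flip p = 0.00586). It ranged from -0.0446 in mouse 14 to 0.216 in mouse 36, and mouse 14 was the only mouse below 0. Median UMIs per cell were 3019 to 4830 in the 10 mice for cells with 2 α chains and 2735 to 4363 for the others. Within activated TFH cells the difference was 0.114 (higher in 8 of 10 mice, exact sign-flip p = 0.0273), and within TFR cells it was 0.171 (higher in 10 of 10 mice, exact sign-flip p = 0.00195).

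The added RNA sat with clonotypes seen once and with cells in which a second β was seen. For clonotypes of 1 cell the difference was 0.219 (a ratio of 1.16, higher in 9 of 10 mice, exact sign-flip p = 0.00391), and for clonotypes of 2 or more cells it was 0.0209 (a ratio of 1.01, SD 0.0715, exact sign-flip p = 0.377), each against cells with 1 α and 1 β of clonotypes of the same kind. Recurring clonotypes differed less than single ones by 0.199 (SD 0.184, 9 of 10 mice, exact sign-flip p = 0.0117). For cells with 2 α chains in which a second β was seen it was 0.516 (a ratio of 1.43, SD 0.288, exact sign-flip p = 0.00391). Where no second β was seen it was 0.0919 (exact sign-flip p = 0.00391). Among cells with 1 TRAJ name, those with a second β seen also held more RNA, by 0.191 (a ratio of 1.14, higher in 10 of 10 mice, exact sign-flip p = 0.00195).

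**Figure D4:**
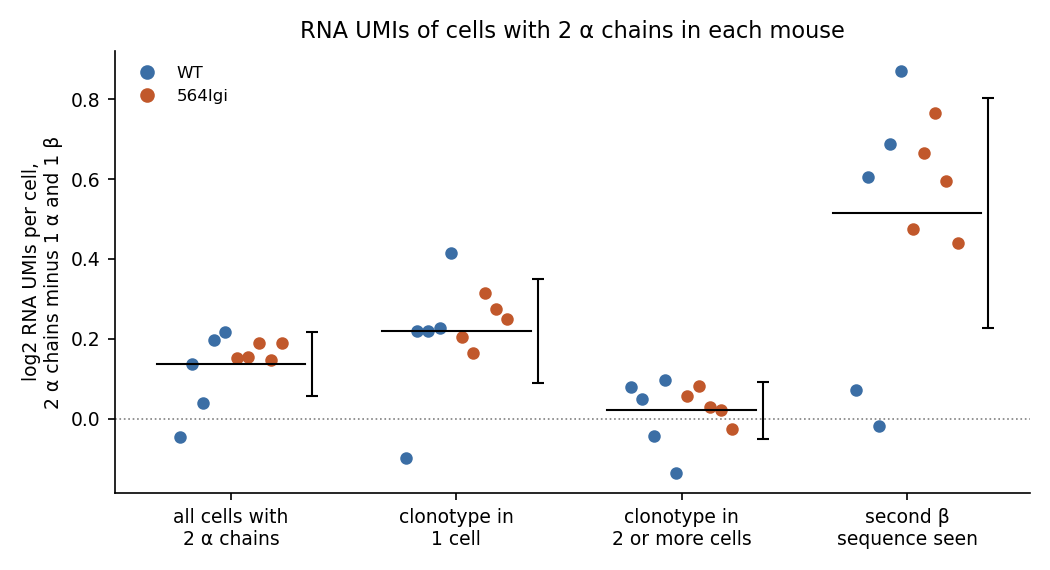
Difference in mean log2 RNA UMIs per cell between cells with 2 α chains and cells with 1 α and 1 β (y axis), 1 point per mouse, for all cells and for 3 classes of cells, with the mean as a line and the SD as a bar. The mean is 0.138 for all cells, 0.219 for clonotypes of 1 cell, 0.0209 for clonotypes of 2 or more cells and 0.516 where a second β was seen.

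Genes per cell followed UMIs. The difference was 0.0911 on the log2 scale (a ratio of 1.07, higher in 9 of 10 mice, exact sign-flip p = 0.00391), and among cells of 3000 to 5000 UMIs it was 0.0105 (SD 0.0147, exact sign-flip p = 0.0527). Cells with over 3000 genes made up 3.59% ± 1.78 of cells with 2 α chains and 0.933% ± 0.696 of the others (higher in 10 of 10 mice, exact sign-flip p = 0.00195), from 0.311% in mouse 12 to 5.58% in mouse 13. The mitochondrial share of UMIs was 3.54% and 3.45% (exact sign-flip p = 0.0781), and the authors' heat shock score was 0.00944 and 0.0127 (exact sign-flip p = 0.430).

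None of the 6 clusters held a detectably different share of both kinds of cell. Activated TFH cells made up 45.1% ± 10.0 of cells with 2 α chains and 42.5% ± 6.09 of the others (difference 2.57, SD 9.94, adjusted over 6 clusters p = 0.651, exact sign-flip permutation test). TFR cells made up 39.9% ± 10.1 and 40.7% ± 7.27 (difference -0.851, SD 11, adjusted exact p = 0.803), and the difference ran from -17.0 in mouse 12 to 16.4 in mouse 34. Sostdc1-expressing TFH cells made up 8.18% and 10.3% (lower in 8 of 10 mice, adjusted exact p = 0.0936). Interferon-stimulated TFH cells made up 0.944% and 1.44% (lower in 8 of 10 mice, adjusted exact p = 0.0822), central memory TFH cells 2.85% and 2.46%, and effector TFH cells 3.04% and 2.50%. In mouse 12, 5 of the 95 cells of the large clonotype were TFR cells.

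The defining markers of the 3 largest clusters were found in both kinds of cell. Foxp3, which sets the regulatory program, was found in 58.2% of TFR cells with 2 α chains and in 55.4% of the others, and in 8.68% and 6.46% of cells of the other clusters. Tnfsf8, a ligand of the TNF family, was found in 63.9% and 63.6% of activated TFH cells and in 33.4% and 31.2% outside. Sostdc1 was found in 100% of cells of its cluster in both kinds, over the 4 mice with at least 20 such cells with 2 α chains.

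Markers of different clusters were found together somewhat more often in cells with 2 α chains. Foxp3 and Sostdc1 were found in the same cell in 3.66% ± 1.21 of cells with 2 α chains and 2.02% ± 0.862 of the others (higher in 10 of 10 mice, exact sign-flip p = 0.00195, adjusted over 4 pairs 0.00781). Foxp3 and Tnfsf8 were found together in 6.38% ± 2.22 and 4.15% ± 1.33 (higher in 8 of 10 mice, adjusted exact p = 0.0195). Foxp3 with Cd40lg, the helper ligand, gave 5.41% and 3.85% (adjusted exact p = 0.206), and Foxp3 with Ccl5, a chemokine of effector cells, gave 3.71% and 3.21% (adjusted exact p = 0.377). Among cells of 3000 to 5000 UMIs none of the 4 pairs passed, with 2.41% and 2.24% for Foxp3 with Sostdc1 (adjusted exact p = 0.584) and 6.40% and 4.42% for Foxp3 with Tnfsf8 (adjusted exact p = 0.505). Foxp3 with Cd40lg gave 5.36% and 4.15% there, and Foxp3 with Ccl5 gave 4.04% and 3.18% (adjusted exact p = 0.505 for both). The difference between both kinds of cell was thus 0.177 there for Foxp3 with Sostdc1, against 1.64 over all cells, and 1.98 for Foxp3 with Tnfsf8, against 2.23. The 4 pairs were chosen with the data known.

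Markers of other cell types did not differ detectably between both kinds of cell. Any of 5 myeloid genes was found in 0.338% of cells with 2 α chains (0% to 1.16% over mice) and 0.377% of the others (0% to 0.620%), and any of 2 erythroid genes in 0.795% and 0.701%. Any of 7 B cell genes was found in 12.6% (8.26% to 17.9%) and 11.3% (7.47% to 13.9%), mostly from Cd79b, Cd22, Fcmr and Pax5, while Ms4a1, a defining B cell gene, was found in 0% and 0.0431%. Cd8b1 was found in 6.20% and 4.54%, and any of 3 natural killer T cell genes in 15.6% and 13.9%, of which Zbtb16, the defining factor, gave 0.0388% and 0.0345%. None of the 5 lists passed the test (smallest adjusted exact p 0.0732).

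Gene expression was compared within mice over 9971 genes, as the mean of log2(corrected count + 1), on which fold changes of low genes are understated. By limma with Benjamini-Hochberg adjustment, 0 genes (0% of those tested) differed between cells with 2 α chains and the others at an adjusted p below 0.05, while 1387 (13.9%) had an unadjusted p below 0.05, 1371 (13.7%) of them higher and 16 (0.160%) lower in cells with 2 α chains. The smallest adjusted p was 0.319. The median difference over all genes was 0.00707, 81.7% of genes were higher, and the largest difference was 0.112. Among cells of 3000 to 5000 UMIs, with 397 genes at an unadjusted p below 0.05, 53.3% of genes were higher and the median was 0.000838. In clonotypes of 2 or more cells, with 363 such genes, 51.8% were higher and the median was 0.000455. The part of RNA per cell in the differences of single genes was not tested.

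**Figure D5:**
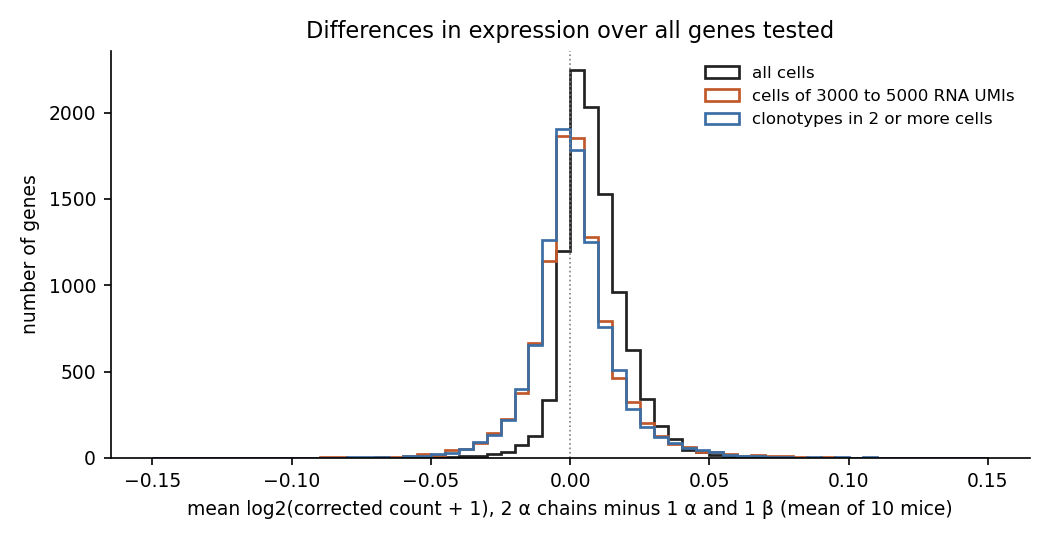
Number of genes (y axis) by the difference in mean log2(corrected count + 1) between cells with 2 α chains and cells with 1 α and 1 β, averaged over 10 mice (x axis), for all cells, for cells of 3000 to 5000 RNA UMIs and for clonotypes of 2 or more cells. The curve of all cells lies to the right of 0, with a median of 0.00707, and those of both subsets are centered near 0, with medians of 0.000838 and 0.000455.

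The gene lists moved little. Of 11 genes of the TCR complex and its first signaling steps, 0 passed the test, and Lat, the adaptor that couples the receptor to its signaling pathways, had the lowest unadjusted p. Its level was 1.60, 1.72, 1.59, 1.60 and 1.80 in cells with 2 α chains of the WT mice 14, 11, 12, 23 and 36, and 1.53, 1.71, 1.53, 1.56 and 1.70 in the other cells. In the 564Igi mice 17, 24, 13, 21 and 34 it was 1.90, 1.52, 1.54, 1.61 and 1.84 against 1.75, 1.43, 1.47, 1.66 and 1.77. It was thus higher in 9 of 10 mice, by 0.0605 (SE 0.0173, unadjusted p = 0.00436 and adjusted p = 0.319 by limma). The next was Ptprc, the phosphatase CD45, with a difference of 0.0527 (SE 0.0197), and the median of the list was 0.010 beside 0.0071 over all genes.

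The counts of higher genes in the lists that follow stand beside 81.7% of all genes. Of 15 genes induced by or tuned to TCR signals, 0 passed and 12 were higher, with a median difference of 0.0097. Egr3, an early response factor, differed by 0.0125 (SE 0.00415, higher in 9 of 10 mice) and Egr2 by 0.0214 (SE 0.0110). Of 15 TFH genes 0 passed and 11 were higher (median 0.017), with Maf, which drives Il21 and Il4, at 0.0407 (SE 0.0163), Tox2 at 0.0368 (SE 0.0149) and Cxcr5, the follicle-homing receptor, at 0.0384 (SE 0.0186). Of 12 TFR genes 0 passed and 10 were higher (median 0.0048), with Foxp3 at 0.0467 (SE 0.0331) and Prdm1 at 0.0114 (SE 0.00755). Of 8 genes of naive and memory cells 0 passed and 8 were higher (median 0.023), with Lef1 at 0.0295 (SE 0.00903) and S1pr1, the receptor for exit from lymphoid tissue, at 0.0480 (SE 0.0179). None of the 3 heat shock genes tested passed, and of 5 genes of recombination and recent thymic emigrants (Rag1, Rag2, Dntt, Cd24a and Ccr9), 2 were in the matrix and 0 passed the filter on low values.

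Within single clusters the result was similar. By limma, 0 genes (0%) were called in activated TFH cells, with 618 (6.20%) at an unadjusted p below 0.05, and 0 (0%) in TFR cells, with 880 (8.83%). The median standard error was 0.0106 in activated TFH and 0.0116 in TFR cells against 0.00724 over all cells.

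Within cells with 2 α chains, 2 of 9971 genes (0.0201%) differed between conditions by limma at an adjusted p below 0.05, with 369 (3.70%) at an unadjusted p below 0.05. Both were higher in 564Igi chimeras, and both are named here after their values were seen. A lack of overlap between groups is therefore no further support for them, and genes without overlap were not counted over all 9971. Gm42031, a predicted gene, was at 0.606, 0.299, 0.477, 0.414 and 0.650 in the WT mice 14, 11, 12, 23 and 36 and at 1.73, 2.49, 1.90, 2.20 and 3.33 in the 564Igi mice 17, 24, 13, 21 and 34. The groups did not overlap (difference 1.84, SE 0.172, adjusted p = 1.57e-07). Ly6a, which encodes the surface protein Sca-1, was at 1.31, 1.13, 1.01, 1.25 and 1.33 in WT and 1.52, 1.87, 2.08, 1.67 and 1.72 in 564Igi mice in the same order, again without overlap (difference 0.565, SE 0.102, adjusted p = 0.0305). The corrected counts were made by the authors in each condition on its own, so levels of both conditions rest on separate fits. The part of this in the differences was not tested. The calls of both genes depended on the fit and on single mice. By limma without the trend 0 genes were called (327 at an unadjusted p below 0.05), without the filter on low values 1 gene was called and it was neither of these, 1 gene was called without mouse 11, 12, 23, 24, 13 or 21, and 4 were called without mouse 14, 17 or 34.

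The number of α chains did not change these differences detectably. Gm42031 differed by -0.000713 (SE 0.0328) and Ly6a by 0.0125 (SE 0.0308) between both kinds of cell, and the difference between kinds differed between conditions by 0.0227 (SE 0.0680) and 0.0414 (SE 0.0631). Over all 9971 genes, 0 (0%) showed a difference between kinds that differed between conditions by limma, with 512 (5.13%) at an unadjusted p below 0.05.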

How the data were processed

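Single-cell RNA and TCR libraries of 10 mice were analyzed. Per the labels and the methods, the authors aligned reads to GRCm38 (mm10) with Cell Ranger 4.0.0, filtered cells with Seurat 3.1.4 and kept TCRs with productive α and β chains. The methods name a multiplet rate but no step that removed doublets, and no doublet caller was run here. The deposited TCR table gives UMI counts per chain and the RNA cell table gives UMI counts and gene counts per cell, cluster names, the percent of mitochondrial UMIs and a heat shock score, all computed by the authors. The deposited expression matrix holds the natural log of the corrected count plus 1 after sctransform of each condition on its own, and was converted to log2. These are not raw counts, so no count model was fitted. Depth was 2047 to 4695 TCR cells and 1121 to 4030 RNA cells per mouse, and at least 2001 RNA UMIs per cell.

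Each UMI list holds the 2 lowest different counts of a cell with no chain name, so the planned comparison of α UMIs was not made. In cells with 2 α chains the lower listed value had a median of 2 to 6 per mouse and the higher 5 to 11. CDR3s were read from the contigs with Biopython 1.88, and 99.8% of the contigs (63751 of 63877) gave the deposited sequence. An unlisted CDR3 was called α or β by its last 9 bases where 95% of known chains ending so were of that class, and TRAJ names of α sequences came from the last 18 bases by the same limit.

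Both kinds of cell of a mouse came from the same library, so the mouse was the block. Within-mouse differences were tested by exact sign flips (1024 patterns, two-sided, smallest p 0.00195) and conditions by all assignments of mice to 2 groups of 5 (two-sided). Correlations and, outside the gene tests, the alternative without the block used 100000 random permutations. A gene had to reach 1% of the cells of 5 mice or more, and limma 3.58.1 with trend, under R 4.3.3, was run on mice with at least 20 cells of each kind. Scripts used Python 3.11.15, numpy 2.4.6, pandas 2.3.3, scipy 1.17.1 and matplotlib 3.10.9. No gene passed, so the rule for named genes (up to 10 called genes per direction, ranked by size, with the same sign in 9 of 10 mice) named none, and the genes named are the 2 to 4 of lowest unadjusted p of each list and cluster markers. The cells, lists and comparisons were chosen with earlier results of these data known. Positions of TRAJ genes came from GENCODE vM21 on GRCm38. Alternatives left out each mouse, mice 34 and 36, chains under 3 UMIs, cells with a second β seen, repeats of a clone, the block, the trend and the filter.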

Additional observations from a re-analysis of the deposited data

Results flagged for a closer look

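Among 24 groups of 5 mice tested for a mouse far from the others, 2 had one, where chance gives about 1 in 20. A second β sequence was seen in 32.5% of the cells with 2 α chains of mouse 12 (WT), against 9.40% to 13.8% in the other WT mice. The clonotype of 128 cells with 2 α and 2 β sequences held most of them, and without it the share in mouse 12 was 4.53%. The RNA match rate of cells with 2 α chains exceeded that of the other cells by 20.1 percentage points in mouse 24 (564Igi), against 1.67 to 2.27 in the other 564Igi mice. In mouse 24, 44.6% of cells with 1 α and 1 β were found in the RNA table, and in mouse 14, which had the largest gap among WT mice (15.6), 33.2% were. None of 31 differences between both kinds of cell differed between conditions at p below 0.05 by the exact permutation test.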

How the results depend on the processing

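Of 230 values under alternatives, 200 kept their direction and side of the threshold. The differences in TRAJ distance (-4.42 to -4.08), clone size (-15.8 to -13.0), RNA match (4.42 to 6.50) and RNA UMIs (0.129 to 0.158) kept both when single mice were left out. The cause of each change was not tested.

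Without the block, which pairs both kinds of cell by mouse, 2 results did not pass by random permutation. These were the RNA match rate (5.98, permutation p = 0.277) and RNA UMIs (0.138, permutation p = 0.123), and no other call changed. RNA UMIs in recurring clonotypes gave 0.0209. Clones by the β CDR3, over cells with a β seen, gave 0.470 where listed CDR3s gave -14.1 over all cells. The difference in share between conditions, which never passed, was -0.175 with 3 UMIs per chain and ran from -1.33 to 1.61 without single mice. Its relation to cells in the RNA table was -0.129. Cluster differences that did not pass and changed sign were those of TFR (0.305 where no second β was seen, and from -2.76 to 0.939 without single mice), Sostdc1 TFH (0.0476 with each clone counted once), central memory TFH (-0.557 with each clone counted once) and effector TFH (-0.238 to 0.838 without single mice). In recurring clonotypes central memory TFH gave -0.180 and passed in that direction (adjusted exact p = 0.0234). Interferon-stimulated TFH passed with 3 UMIs per chain (-0.735) and in recurring clonotypes (-0.922).

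The 2 genes called between conditions became 1 to 4 without single mice, 0 without the trend, 1 without the filter (0 of them shared) and 4 without mice 34 and 36. The counts of 0 stayed 0 under every alternative run, with 1016 to 1476 genes at an unadjusted p below 0.05 without single mice and 476 without the block in the main comparison. Restriction to cells with exactly 1 TRBJ name could not be run, since the lists hold none, and α UMIs had no test. These alternatives were chosen after seeing the data: no second β seen, recurring clonotypes, library clonotype numbers, kilobases, other pairs, RNA-table cells, the leaving out of mice 14 and 24 and, for genes between conditions, that of mice 34 and 36. Depth limits what a second chain shows, since a chain with no UMI is not seen.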

Other observations

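Id3 and Inpp4b were picked after their values were seen, as the 2 genes with the largest difference among those with the same sign in 10 of 10 mice, and neither passed the test. Id3, an inhibitor of E protein transcription factors, was higher in cells with 2 α chains by 0.112 (SE 0.0288, unadjusted p = 0.00205, adjusted p = 0.319 by limma). Its differences ran from 0.00533 in mouse 12 to 0.307 in mouse 34. Among cells of 3000 to 5000 UMIs it differed by 0.132 (SE 0.111) and in recurring clonotypes by 0.0773. Inpp4b, a lipid phosphatase, differed by 0.0578 (SE 0.0137) and by 0.0254 among cells of 3000 to 5000 UMIs.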
